A study of Mus musculus with 6 samples.

Results

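Small nucleolar RNAs and small Cajal body RNAs were followed in RNA from the epithelial fraction of mouse colon, in 3 wild type and 3 Lingo2-/- libraries. Members were all genes whose name in the authors' deposited comparison begins with Snord, Snora or Scarna, and 24 of the 14338 genes listed there qualified. They comprised 8 Snord, 11 Snora and 5 Scarna genes. Genes with these 3 name stems numbered 150 among the 46078 gene rows of the count table, and 78 of them had at least 1 read. The authors' comparison therefore holds the better detected ones. The lowest member by total reads was Snora62, with 131 reads over the 6 libraries, and the highest gene of such a name outside the list was Snord83b, with 116. The rule uses names alone and no genotype difference.

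Mice of both genotypes were 2 months old and unchallenged. The epithelial cells were released from the colon by a wash with EDTA and DTT, and total RNA was sequenced after removal of ribosomal RNA. The labels name the mutant genotype Lingo2-/-, that is, lacking Lingo2, a membrane protein with leucine-rich repeats. The strain, the sex and how the allele was made are not stated in the labels. Nothing says that each library is another animal, so that every p-value here rests on a spread that could be technical.

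Small nucleolar RNAs are noncoding RNAs that guide chemical modification of ribosomal RNA by base pairing. C/D box RNAs, named Snord, carry the methyltransferase fibrillarin to the sites of ribose methylation. H/ACA box RNAs, named Snora, carry the pseudouridine synthase dyskerin. Scarna RNAs reside in Cajal bodies and guide the same reactions on spliceosomal RNAs. In mammals most of these RNAs are cut out of introns of host genes, many of which encode ribosomal proteins or translation factors, while a few have promoters of their own. A small number act in the cleavage of the ribosomal RNA precursor and not in its modification.

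The sequences of 4 members are printed because they carry the results that follow. Snora23 and Snord22 are the genes that differed by genotype, Snord17 was the most abundant Snord gene, and Scarna6 had mutant values below all wild type values. Sequences are the annotated transcripts of GENCODE M21 (GRCm38), written 5′ to 3′ as DNA letters. Capitals mark TGATGA in the first 25 bases and CTGA in the last 15 bases, the letters of boxes C and D, in Snord and Scarna genes. In Snora genes they mark the ACA nearest the 3′ end within the last 6 bases. In Snora23 another ACA overlaps it there, so the capitals need not mark the box itself. Snora23 lies at chr7:110046364-110046547 on the plus strand and Snord22 at chr19:8725866-8725991 on the plus strand. Snord17 lies at chr2:144265979-144266216 on the minus strand. Scarna6 lies at chr1:87784556-87784820 on the plus strand.
Snora23: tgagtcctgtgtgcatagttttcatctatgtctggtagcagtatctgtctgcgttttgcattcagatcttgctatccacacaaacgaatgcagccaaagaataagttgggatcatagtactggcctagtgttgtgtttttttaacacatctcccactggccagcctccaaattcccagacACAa
Snord22: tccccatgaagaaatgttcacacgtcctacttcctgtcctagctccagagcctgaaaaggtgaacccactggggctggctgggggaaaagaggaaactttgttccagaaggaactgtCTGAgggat
Snord17: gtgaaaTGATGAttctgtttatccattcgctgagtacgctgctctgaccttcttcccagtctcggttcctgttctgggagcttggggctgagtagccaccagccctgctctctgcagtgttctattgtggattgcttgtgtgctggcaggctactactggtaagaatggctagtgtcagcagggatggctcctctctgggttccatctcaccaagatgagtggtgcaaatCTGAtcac
Scarna6: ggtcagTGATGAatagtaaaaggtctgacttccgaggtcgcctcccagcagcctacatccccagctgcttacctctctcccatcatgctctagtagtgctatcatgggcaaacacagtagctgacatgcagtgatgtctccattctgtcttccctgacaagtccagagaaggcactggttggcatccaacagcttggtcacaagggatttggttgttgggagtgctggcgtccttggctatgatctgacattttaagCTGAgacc

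The 3 classes differed in these end sequences, searched on the transcript strand alone. Snord and Snora genes are named by their boxes, so their difference follows from the names and only describes the annotated sequences. ACA stood in the last 6 bases of 11 of 11 Snora genes, 1 of 8 Snord genes and 1 of 5 Scarna genes, against 7.89% of 141491 other annotated transcripts. CTGA stood in the last 15 bases of 7 of 8 Snord, 4 of 5 Scarna and 1 of 11 Snora genes, against 7.10% of the other transcripts. TGATGA stood in the first 25 bases of 4 Snord, 3 Scarna and no Snora genes, against 0.859%. Snord22, printed above, has the box D letters and not TGATGA in that window. Snord43 carries the biotype miRNA in the annotation and holds none of these letters in the windows searched.

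Of 24 genes, 17 lay inside another annotated gene on the same strand and 7 did not (Scarna2, Scarna17, Snora17, Snora57, Snord13, Snord104 and Snord118). Ribosomal protein hosts held 7 of the 17, from Rpl3, which holds Snord43, to Rpsa, which holds Snora62. Exons of the host in some isoform overlapped Snora28, Snora33, Snora68, Snora7a and Snord22. Reads there may stem from the host, and may have been counted on the small RNA gene or left out as ambiguous. A gene on the opposite strand overlapped Snora23, Snora57 and Snora78. Whether the counting used strand is not given, so reads of a gene and its antisense partner cannot be told apart. For 8 members (Scarna17, Snora17, Snora21, Snora30, Snora33, Snora57, Snora68 and Snord118) the annotation held at least 1 other gene of 90% identity or more over 80% of the length. Counts of these 8 are uncertain, because reads could be split between copies or dropped as not unique.

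Levels are given as CPM, reads on a gene relative to library size after TMM scaling, which aligns libraries on the bulk of genes, and differences as log2 fold changes of mutant against wild type. Wild type libraries held 25010618 to 28029583 gene reads, and Lingo2-/- libraries held 7060769 to 13047682, so that counting error was larger in the Lingo2-/- libraries. The members took 0.0320% to 0.0548% of gene reads. Single members had 6 to 3645 reads in a library, and 3 reads, the limit that a count of 0 allows, correspond to 0.112 to 0.138 CPM in wild type and 0.207 to 0.374 CPM in Lingo2-/- libraries, for counting error only. Reads of mitochondrial genes were 45.3% to 48.4% of gene reads for wild type and 35.7% to 39.8% in Lingo2-/- libraries. Reads in no annotated feature were 18.5% to 22.1% and 23.6% to 27.6% of all alignments, respectively. Those set aside as not unique were 36.5% to 36.9% in wild type and 30.8% to 33.9% in Lingo2-/- libraries. Ambiguous ones were 1.23% to 1.28% and 1.34% to 1.57%, respectively. All 11 epithelial marker genes, among them Epcam, Cdh1 and Krt8, were detected, with a summed level of 4327 to 5252 CPM in wild type and 4307 to 5185 CPM in Lingo2-/- libraries. In bulk samples fewer cells of a type and less RNA per cell cannot be told apart.

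Snord22 and Snora23 rose in the Lingo2-/- libraries, by 3.82-fold and 3.49-fold in mean CPM, and none of the other 22 members passed the test. Snord22 is a C/D box RNA needed for processing of the small subunit ribosomal RNA in Xenopus oocytes. Snora23 is an H/ACA box RNA. Thus 1 of 8 Snord, 1 of 11 Snora and 0 of 5 Scarna genes were called, at an adjusted p under 0.05 (edgeR quasi-likelihood, Benjamini-Hochberg over 16757 genes). Over all genes tested 1.04% were called higher and 1.52% lower, 2.57% in all, against 2 higher and 0 lower of 24 members. At an unadjusted p under 0.05 stood 4 members, against 18.6% of all genes. Of these Scarna6 and Snord13 lay lower, against 9.64% of all genes, and DESeq2's Wald test also called 2 higher and 0 lower. The authors' deposited table also had 2 members past an adjusted p of 0.05 on the higher side and 0 on the lower, against 1.9% and 2.8% of its genes. These were Snord22 (adjusted p = 2.36e-14 in the authors' deposited table) and Snora23 (adjusted p = 2.46e-08 there). Groups did not overlap in 2 members on the higher and 2 on the lower side, shares of 8.33% each, where 12.3% and 11.8% of all genes tested did not overlap.

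Reads on Snord22 numbered 216, 241 and 384 across the wild type libraries, and 555, 298 and 512 across the Lingo2-/- libraries (replicates 1, 2 and 3 in that order, also for all values that follow). In CPM this was 9.93, 8.99 and 16.4 in wild type and 38.3, 37.1 and 59.2 in Lingo2-/- libraries. Every mutant library lay above every wild type library, and the third replicate was the highest of each genotype. The mean went from 11.8 ± 4.01 (SD, n = 3) to 44.9 ± 12.4 CPM, a log2 fold change of 1.93 ± 0.30 (SE, edgeR adjusted p = 0.0349).

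Reads on Snora23 numbered 75, 64 and 142 across the wild type libraries, and 178, 98 and 147 across the Lingo2-/- libraries. In CPM this was 3.45, 2.39 and 6.05 in wild type and 12.3, 12.2 and 17.0 in Lingo2-/- libraries. The groups did not overlap, and again the third replicate was the highest of each genotype. The mean went from 3.96 ± 1.88 (SD, n = 3) to 13.8 ± 2.75 CPM, a log2 fold change of 1.80 ± 0.32 (SE, edgeR adjusted p = 0.0321). The ratio of Snord22 to Snora23 CPM stayed between 2.70 and 3.77 in wild type and between 3.04 and 3.48 in Lingo2-/- libraries. This overlap follows from the choice of the genes, both called higher with close log2 fold changes, and adds nothing to those values.

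Both calls were lost when some single libraries were left out. Snora23 kept its call without wild type replicate 2 (1.53, edgeR adjusted p = 0.0150) or wild type replicate 3 (2.25, edgeR adjusted p = 0.000748). Its adjusted p was 0.115 without wild type replicate 1, 0.0867 without mutant replicate 1, 0.0865 without mutant replicate 2 and 0.113 without mutant replicate 3. Snord22 kept its call without wild type replicate 3 (2.24, edgeR adjusted p = 0.00222). Its adjusted p was 0.126 without wild type replicate 1, 0.0687 without wild type replicate 2, 0.0911 without mutant replicate 1, 0.0649 without mutant replicate 2 and 0.0534 without mutant replicate 3. The fold change remained above 1.5 on the log2 scale for both genes in each of these fits. With each library thinned to the depth of the shallowest, an alternative chosen after seeing the data, Snora23 stood at 1.75 and Snord22 at 1.79, and both were called.

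**Figure D1:**
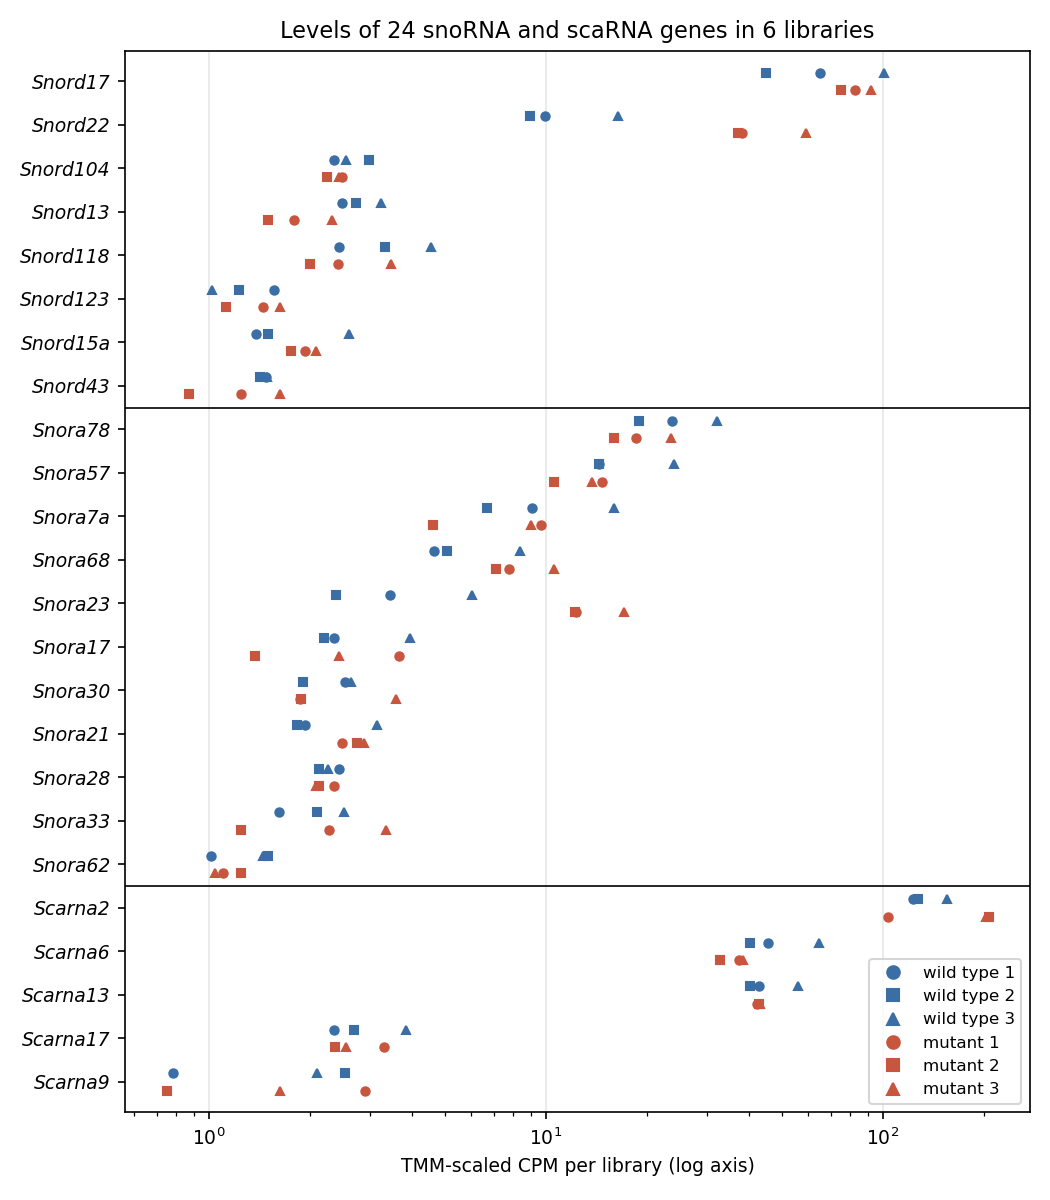
Level of each of the 24 members in each library, as TMM-scaled CPM on a log axis. Blue symbols are wild type and red symbols Lingo2-/- libraries, horizontal lines separate Snord, Snora and Scarna genes, and circles, squares and triangles are replicates 1, 2 and 3. The mutant values of Snord22 (37.1 to 59.2 CPM) and Snora23 (12.2 to 17.0 CPM) lie to the right of all wild type values.

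Markers of T cells, a type this fraction could also hold, moved with genotype as well. All 10 T cell markers were called lower in the Lingo2-/- libraries, with a summed level of 397 to 480 CPM in wild type and 166 to 191 CPM in Lingo2-/- libraries and none at 0. Of 5 macrophage markers, Tyrobp (−1.11) and Itgax (−0.99) were called lower. Adgre1 (0.05), Cd68 (−0.11) and Csf1r (−0.24) were not called. All 5 summed to 24.2 to 27.6 CPM in wild type and 13.9 to 20.8 CPM in Lingo2-/- libraries. No marker of B and plasma cells (26.5 to 47.5 CPM in wild type, 38.8 to 51.5 CPM in mutant), fibroblasts (329 to 969 CPM and 222 to 492 CPM) or erythrocytes (373 to 625 CPM and 218 to 368 CPM) was called, and none of these markers was at 0 in every library. All 5 erythrocyte markers lay lower at an unadjusted p under 0.05 (18.6% of all genes had such a p in either direction), with a median of −0.82. All 5 fibroblast markers lay lower too, with a median of −1.34, 2 of them at that level. The 5 B and plasma cell markers ranged from −0.30 to 0.86, and Jchain (0.86) and Igha (0.73) reached that level. The part of these cells, of the lower mitochondrial share or of the higher share of reads outside features in the rise of Snord22 and Snora23 was not tested.

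Snord22 lies in Snhg1, a noncoding host gene whose introns hold a series of small nucleolar RNAs. Snhg1 itself has no row in the count table, so its own level could not be given. Its exons in some isoform overlap Snord22, and whether their reads were counted on Snord22 was not tested. The 7 other small RNA genes that the annotation places in Snhg1 are short, 65 to 76 bases, and had 2 to 55 reads in a library. Their summed level was 6.58, 6.94 and 7.54 CPM in wild type and 6.07, 4.74 and 7.17 CPM in Lingo2-/- libraries, so the genotypes overlapped. Of the 6 that could be tested 5 lay below 0 and none was called, with log2 fold changes from −0.51 (Gm25894) to 0.24 (Gm24453), a median of −0.33, and 0 at an unadjusted p under 0.05. The log2 ratio of Snord22 to their sum was 0.60, 0.37 and 1.12 in wild type and 2.66, 2.97 and 3.05 in Lingo2-/- libraries. The groups did not overlap and differed by 2.20 on the log2 scale. A two-sided exact permutation test gave p = 0.10, the smallest that 3 against 3 libraries allow. Snord22 was chosen for its rise in these same libraries and the sum overlapped, so the ratio and its p add no separate support.

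Snora23 lies in an intron of Ipo7, which encodes an importin of ribosomal proteins and other cargo. Ipo7 stood at 48.9 ± 3.07 CPM (SD, n = 3) over wild type and 51.4 ± 6.12 CPM in Lingo2-/- libraries, with a log2 fold change of 0.07 ± 0.10 (edgeR adjusted p = 0.762), and at −0.040 without mutant replicate 3. The log2 ratio of Snora23 to Ipo7 was −3.93, −4.32 and −2.95 in wild type and −1.97, −1.97 and −1.78 in Lingo2-/- libraries. These groups did not overlap and differed by 1.83. The exact permutation test again gave its smallest p, 0.10 for each of these 2 ratios also after adjustment over both. Snora23 too was chosen for its rise in these libraries while Ipo7 overlapped, so this ratio adds no separate support. A second small RNA gene within Ipo7, Gm25636, was low, with 5 to 25 reads in a library. It was at 0.41, 0.56 and 1.06 CPM in wild type and 0.97, 0.62 and 2.55 CPM in Lingo2-/- libraries (log2 fold change 0.97 ± 0.52, edgeR adjusted p = 0.346), and its groups overlapped.

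**Figure D2:**
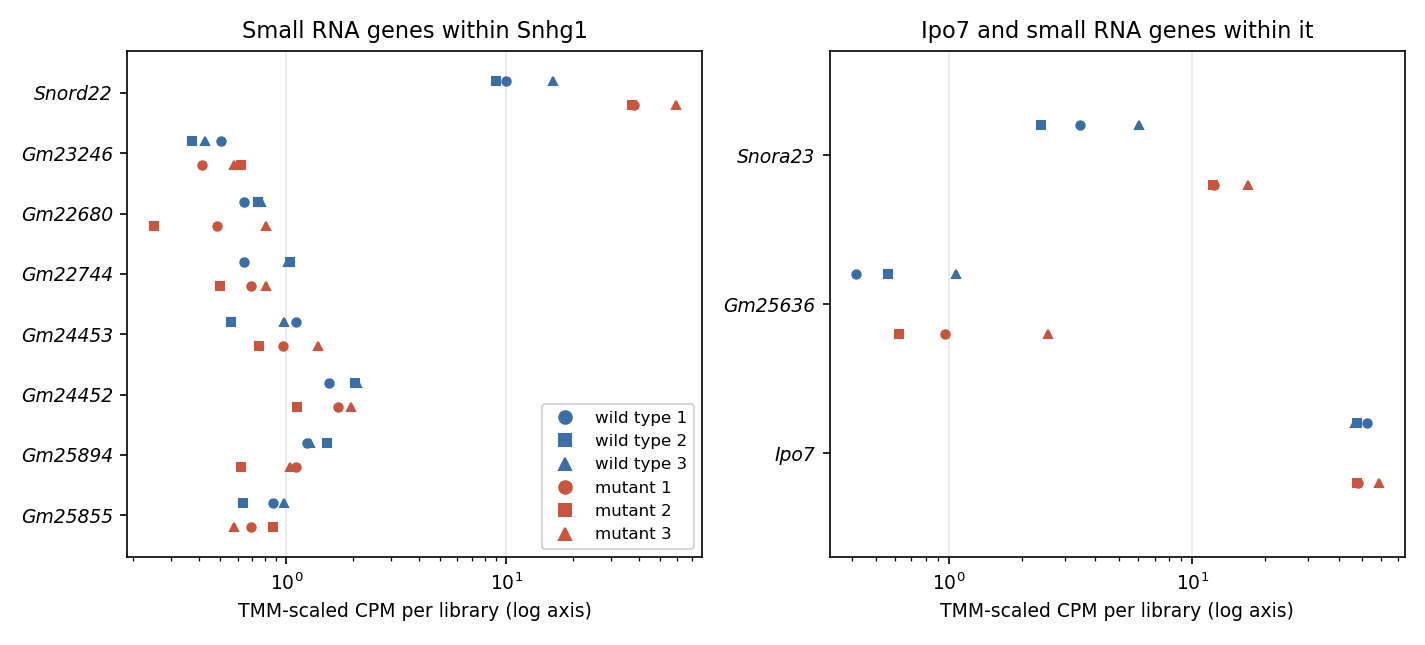
Level in each library, as TMM-scaled CPM on a log axis, of small RNA genes within Snhg1 (left) and of Ipo7 and small RNA genes within it (right); blue is wild type, red is mutant and symbol shapes are replicate numbers. In the rows of Snord22 and Snora23, and in no other, all Lingo2-/- values lie above all wild type values; in Gm25894 they lie below.

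The other C/D box genes did not pass. Snord17, a methylation guide within Snx5, was the most abundant Snord gene, at 65.1, 45.0 and 100.9 CPM in wild type and 82.6, 75.2 and 91.9 CPM in Lingo2-/- libraries. Wild type alone spanned more than a doubling, which covered all mutant values (0.24 ± 0.30, edgeR adjusted p = 0.718). Leaving out wild type replicate 2 gave 0.0013, and leaving out wild type replicate 3 gave 0.60 (edgeR adjusted p = 0.0685). Snord13, which in human cells acts with the acetyltransferase Nat10 on small subunit ribosomal RNA, was at 2.48, 2.72 and 3.24 CPM in wild type and 1.79, 1.50 and 2.31 CPM in Lingo2-/- libraries. Its groups did not overlap, but the difference missed the adjusted threshold (−0.59 ± 0.25, unadjusted p = 0.0349, edgeR adjusted p = 0.228). Snord118, required in Xenopus for processing of the large subunit ribosomal RNA, was at 3.44 ± 1.06 CPM (SD, n = 3) over wild type and 2.63 ± 0.761 CPM in Lingo2-/- libraries (−0.40 ± 0.29, edgeR adjusted p = 0.487). Snord104 was at −0.14 ± 0.22, and Snord15a, Snord43 and Snord123 ranged from −0.22 to 0.15. The median over the 8 Snord genes was −0.03, beside 0.00 (0.000983) over all genes tested.

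The H/ACA box genes other than Snora23 lay on both sides of 0. Snora78, the most abundant, was at 23.6, 18.9 and 32.2 CPM in wild type and 18.5, 16.0 and 23.5 CPM in Lingo2-/- libraries (−0.36 ± 0.21, edgeR adjusted p = 0.409). Snora57 (−0.42 ± 0.23, edgeR adjusted p = 0.366) and Snora7a (−0.41 ± 0.41, edgeR adjusted p = 0.648) had overlapping groups too. Without wild type replicate 3 the value of Snora7a was 0.014. Snora68 was at 4.65, 5.07 and 8.39 CPM in wild type and 7.79, 7.10 and 10.5 CPM in Lingo2-/- libraries (0.48 ± 0.24, edgeR adjusted p = 0.317). Its wild type replicate 3 lay among the mutant values, and without it the difference was 0.79 (edgeR adjusted p = 0.0564). Snora21, in Rpl23, was at 0.22 ± 0.27, and Snora17, Snora28, Snora30, Snora33 and Snora62 ranged from −0.23 to 0.15. The median over the 11 Snora genes was −0.05.

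None of the 5 Cajal body genes was called, by edgeR or by DESeq2's Wald test, and 1, Scarna6, had an unadjusted p under 0.05. Scarna2, a guide for modification of a spliceosomal RNA, was at 123, 127 and 155 CPM in wild type and 104, 206 and 202 CPM in Lingo2-/- libraries. Mutant replicate 1 was the lowest library of all and the other two Lingo2-/- libraries were the highest (0.33 ± 0.27, edgeR adjusted p = 0.569). Without mutant replicate 1 the value was 0.59 ± 0.13 and passed (edgeR adjusted p = 0.0374). Scarna6 was at 45.6, 40.4 and 64.4 CPM in wild type and 37.3, 32.8 and 38.5 CPM in Lingo2-/- libraries, with every mutant value below every wild type value (−0.47 ± 0.17, unadjusted p = 0.0199, edgeR adjusted p = 0.176). It passed with no filter on low counts (edgeR adjusted p = 0.00042) and with thinned libraries (edgeR adjusted p = 0.0487). The fit with no filter gave it an SE of 0.11, against 0.17. That fit called 562 genes higher and 931 lower among 28829 tested, against 175 and 255 among 16757 in the main fit. Without 1 library Scarna6 ranged from −0.60 to −0.25, the latter without wild type replicate 3, with edgeR adjusted p from 0.0656 to 0.372. Scarna13 was within 42.4 to 43.3 CPM in the 3 Lingo2-/- libraries and at 42.8, 40.4 and 56.1 CPM in wild type (−0.12 ± 0.12, edgeR adjusted p = 0.642; 0.040 without wild type replicate 3). Scarna17 was at −0.08 ± 0.26, or 0.15 without wild type replicate 3. Scarna9, with 6 to 68 reads in a library, was at 0.05 ± 0.52, and its sign turned in 4 alternatives, among them limma voom (−0.16) and the fit without mutant replicate 1 (−0.61). The median over the Scarna genes was −0.08.

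**Figure D3:**
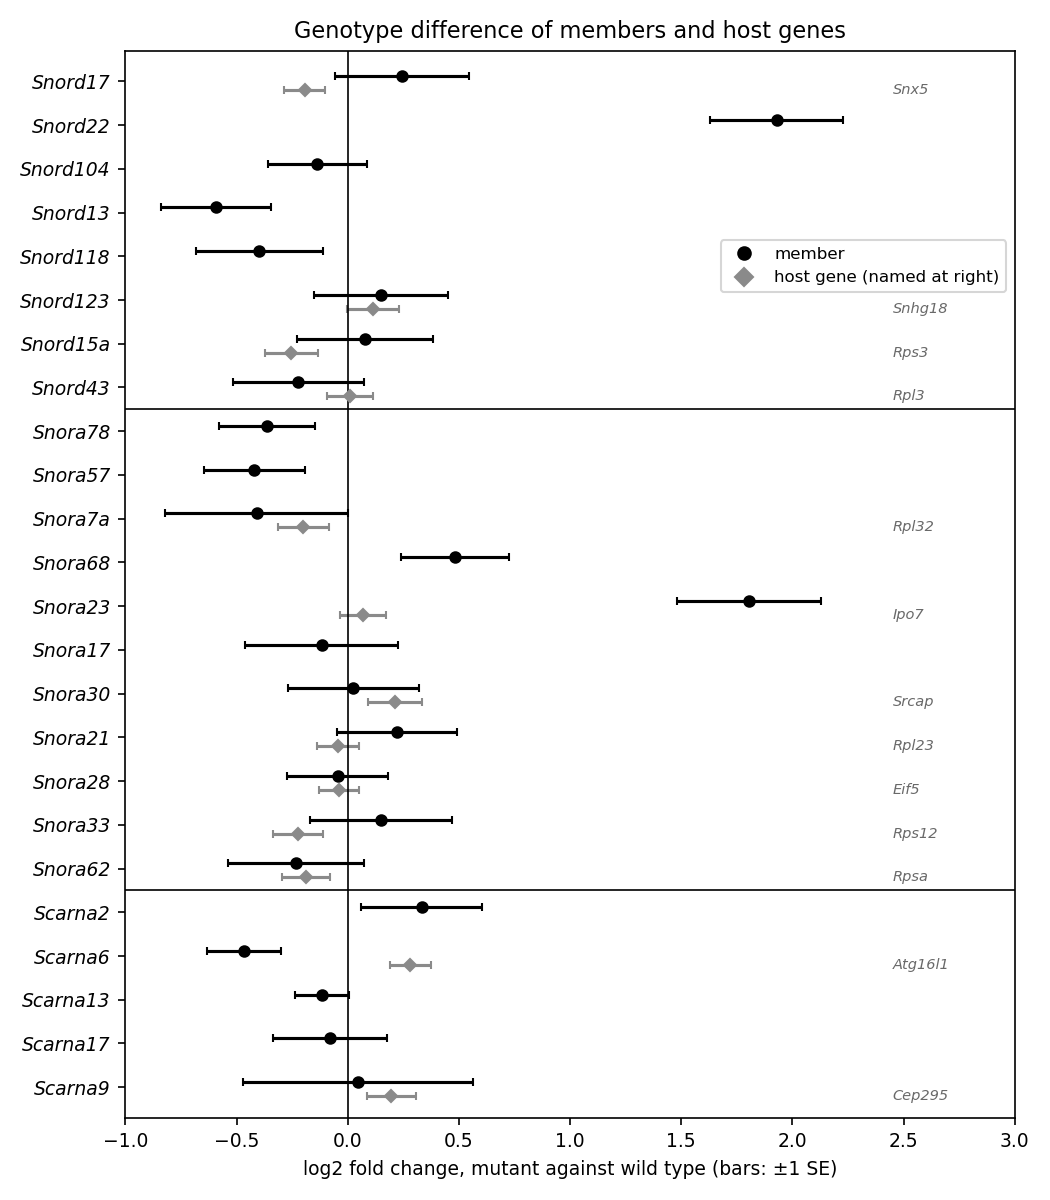
Log2 fold change of mutant against wild type with its SE for the 24 members (black circles) and, for most members with a tested host, that host gene on the same strand (grey diamonds, named at the right). Snord22 (1.93) and Snora23 (1.80) stand apart from 22 members that range from −0.59 to 0.48, and the host genes shown range from −0.25 to 0.28.

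Summed over a class, the Snord genes stood at 86.7, 67.2 and 133 CPM in wild type and 132, 122 and 165 CPM in Lingo2-/- libraries, a log2 ratio of means of 0.55. Wild type replicate 3 overlapped the mutant range. With Snord22 left out, the sums were 76.8, 58.2 and 116 CPM in wild type and 93.9, 84.6 and 105 CPM in Lingo2-/- libraries, a log2 ratio of 0.18, so that Snord22 took up most of the difference in the sum. The Snora genes summed to 67.0, 59.0 and 102 CPM in wild type and 76.7, 61.1 and 89.1 CPM in Lingo2-/- libraries (−0.01). Without Snora23 this ratio was −0.22. The Scarna genes summed to 215, 213 and 282 CPM and to 190, 284 and 288 CPM (0.10), and Scarna2 alone made up 62.3% of the sum. Leaving out 1 library moved these log2 ratios to between 0.34 and 0.86 for Snord, −0.17 and 0.26 for Snora, and −0.0033 and 0.27 for Scarna. The highest Snord and Snora values were those without wild type replicate 3, and the highest Scarna value that without mutant replicate 1.

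Per length, the members of the 3 classes were unequal in level. Members were 8 of 99 Snord, 11 of 42 Snora and 5 of 9 Scarna genes in the count table. Of these genes 48, 22 and 8 had at least 1 read. The medians below therefore describe the listed genes and not whole classes. The median CPM per kilobase over a class was 169 ± 30.8 (SD, n = 3) over wild type and 137 ± 11.4 in Lingo2-/- libraries for Scarna genes. It was 26.9 ± 4.93 and 19.6 ± 4.50 for Snord genes, and 22.0 ± 7.09 and 25.1 ± 4.40 for Snora genes. Scarna medians were 6.72 times those of Snord genes and 6.71 times those of Snora genes as the mean over 6 libraries, and Scarna stood above both other classes in every library. The Snord medians were 23.0, 25.4 and 32.4 CPM per kilobase in wild type, above the Snora medians of 19.2, 16.7 and 30.0 in each library. Across the Lingo2-/- libraries they were 19.1, 15.3 and 24.3, below the Snora medians of 27.7, 20.02 and 27.6 in each library. This turn in order was seen in the values and was not tested. Single members spanned 8.21 (Snora62) to 369 CPM per kilobase (Scarna2). Per length Scarna2 was followed by Snord17 at 323, Snord22 at 225, Snora78 at 173, Scarna6 at 163 and Scarna13 at 162 CPM per kilobase over the 6 libraries. In the Lingo2-/- libraries Snord22 reached 356 ± 98.7 CPM per kilobase, which overlapped Snord17 at 350 ± 35.1 and Scarna2 at 412 ± 140, whereas in wild type it was 93.3 ± 31.8.

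Members were 70 to 238 bases long in the Snord, 127 to 184 in the Snora and 70 to 414 in the Scarna class, with medians of 117, 132 and 265 bases. Spearman's rho of length with level per length was 0.32 across the 24 genes, which share libraries and are not independent. The short Scarna9 and Scarna17, of 70 and 79 bases, stood at 25.4 and 36.0 CPM per kilobase, in the range of Snord104, at 35.8 CPM per kilobase and also 70 bases long. How well RNAs of such lengths enter a library made for longer transcripts was not tested.

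**Figure D4:**
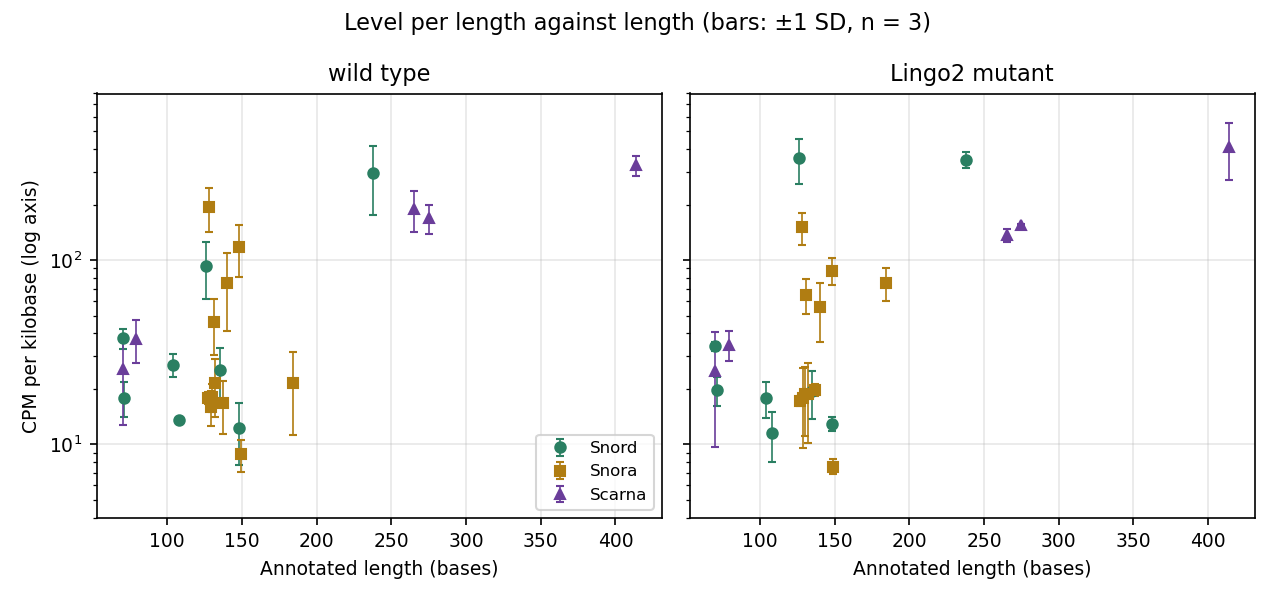
Mean level per length (CPM per kilobase, log axis) of each member against its annotated length in bases, in wild type (left) and Lingo2 Lingo2-/- libraries (right), with the SD over 3 libraries. The 3 Scarna genes of 265 bases or more stand above most Snord and Snora genes, and Snord22, at 126 bases, moves from 93.3 to 356 CPM per kilobase.

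Members varied more between libraries of one genotype than most genes. The median coefficient of variation was 26.7% in wild type and 19.8% in Lingo2-/- libraries, against 11.3% and 13.0% over all genes tested. By class it was 26.2% and 20.1% for Snord, 31.5% and 19.9% for Snora and 25.2% and 18.2% for Scarna genes. The median dispersion of edgeR was 0.0366 over the members and 0.0167 over all genes. The variation was shared: wild type replicate 3 was the highest wild type library for 19 of 24 members (79.2%, against 32.1% of all genes), among them 9 of 11 Snora genes. Mutant replicate 2 was the lowest mutant library for 18 of 24 (75.0%, against 33.5% of all genes), among them 8 of 8 Snord genes. These traits were not particular to the members. In 104 other tested genes of the snoRNA or scaRNA biotype or these name stems, the median coefficients of variation were 27.7% and 27.0%. Their median dispersion was 0.0358. Wild type replicate 3 was the highest wild type library for 58.7% of them, and mutant replicate 2 the lowest mutant library for 47.1%. The SE was above 0.2 on the log2 scale for 22 of the 24 members, and its median over members was 0.290, against 0.165 over all genes.

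None of the 15 tested hosts was called by edgeR or by DESeq2's Wald test, and 1, Atg16l1, had an unadjusted p under 0.05, where 18.6% of all genes did. Atg16l1, an autophagy gene, stood at 32.5 ± 1.30 CPM (SD, n = 3) over wild type and 39.5 ± 2.56 CPM in Lingo2-/- libraries (0.28 ± 0.09, edgeR adjusted p = 0.126), while Scarna6 in its intron was at −0.47. A second small RNA of Atg16l1, Gm25395 of the scaRNA biotype, was at 0.03 ± 0.23. Over the hosts the median was −0.02, and the ribosomal protein hosts ranged from −0.25 (Rps3) to 0.01 (Rpl3). Across 14 members with a tested host, member and host had the same sign in 7, and Spearman's rho of their fold changes was −0.15, as a description over genes that share the same libraries.

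Transcripts of genes for proteins that bind, assemble and trim these RNAs were measured as well, not the proteins. The lists also held Cajal body and telomerase genes, genes of nucleolar transcription and other small RNAs, the last with 8 tested genes. Of 66 tested genes in 7 lists of the pathway none was called by edgeR, where 2.57% of all genes were, and DESeq2's Wald test called 1 lower, Rn7sk. An unadjusted p under 0.05 was found for 8 of the 66, a smaller share than the 18.6% of all genes. The median was 0.06. The genes of the 4 core proteins of C/D particles had a median of 0.16, from Snu13 at −0.03 to Nop58 at 0.24 ± 0.09 (edgeR adjusted p = 0.164). Fbl, which encodes fibrillarin, was at 0.16 ± 0.15. The genes of the 4 core proteins of H/ACA particles had a median of 0.08, from Nop10 at −0.21 ± 0.11 to Gar1 at 0.15 ± 0.24, with the synthase gene Dkc1 at 0.15 ± 0.13. Medians were 0.07 over 16 assembly and export genes, −0.03 over 9 Cajal body and telomerase genes, 0.07 over 17 trimming and turnover genes and −0.04 over 8 genes of nucleolar transcription. In these lists Znhit6, a C/D assembly factor (0.63 ± 0.19, edgeR adjusted p = 0.110), Nat10 (0.38 ± 0.12, edgeR adjusted p = 0.127) and the exosome subunit Exosc7 (0.40 ± 0.12, edgeR adjusted p = 0.104) had unadjusted p-values under 0.01.

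Small nuclear and cytoplasmic RNAs of other kinds had a median of −0.06 over 8 tested genes, with a range from −0.58 to 0.89. The highest was Rny1 (0.89 ± 0.31, edgeR unadjusted p = 0.0149, edgeR adjusted p = 0.153), with 13 to 41 reads in a library and overlapping groups. Rn7sk, the RNA that restrains transcription elongation factor P-TEFb, was at 22679 ± 3483 CPM (SD, n = 3) over wild type and 15135 ± 612 CPM in Lingo2-/- libraries (−0.58 ± 0.19, edgeR adjusted p = 0.120). Terc, the telomerase RNA, which itself carries an H/ACA domain, was at 0.18 ± 0.22, and Rmrp, the RNA of a ribonuclease that cleaves ribosomal RNA precursors, at −0.36 ± 0.18.

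Small nucleolar RNA genes outside the list were measured too. A further 104 genes of the annotated snoRNA or scaRNA biotype, or of these name stems, passed the filter. Of these 0 were called higher and 2 lower, near the 1.04% and 1.52% of all genes, and the median was 0.17. Gm22442, annotated as a scaRNA gene of 144 bases (chromosome 11, 69350518 to 69350661), was at 57.8, 54.0 and 66.0 CPM in wild type and 38.7, 34.9 and 35.2 CPM in Lingo2-/- libraries (−0.70 ± 0.10, edgeR adjusted p = 0.00313). Gm24336, of the snoRNA biotype and 146 bases long (chromosome 19, 44113979 to 44114124), was at 37.6, 40.0 and 50.1 CPM in wild type and 29.4, 25.8 and 30.0 CPM in Lingo2-/- libraries (−0.58 ± 0.12, edgeR adjusted p = 0.0269). In both the groups did not overlap. Both genes were picked with their values in view, and the difference between them and the members was not tested.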

How the data were processed

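Reads of 6 libraries, 3 per genotype, were processed by the authors. Tools named per the submitters' processing notes are STAR, HTSeq, Trimmomatic 0.39 and DESeq2, and the build is GRCm38. No source used here gives the annotation release or the strand setting. Per the labels' protocols the library kit was stranded and removed ribosomal RNA. The deposited count table holds whole-number counts per gene and 5 summary lines, left out of the fits. Of these lines, the shares in no feature, not unique and ambiguous are given above. The authors' deposited comparison holds a normalized signal per library and its mean, log2 fold changes with errors, a test score, and p-values with their adjustment. From it came the names that define the members, and the adjusted p-values credited to it.

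Names, lengths, hosts and sequences came from GENCODE M21 (GRCm38), credited there, and coordinates are 1-based. The test was that of edgeR 4.0.16 in R 4.3.3 (filterByExpr, TMM, robust quasi-likelihood, genotype as the one term) on 16757 genes with Benjamini-Hochberg adjustment and a threshold of 0.05. All 24 members passed the filter. The SE of a log2 fold change is its size over the root of its F value, and a CPM carries the SD of 3 libraries. The name and values of 1 host gene, and the sequence of 1 member, are not reported here, and that host remains in the counts over hosts. Copies were sought with BLAST. The script was tested on simulated counts. Members, lists and tests were chosen with earlier results of these data known. Named were called members, the extremes of each class in level and difference, every Scarna gene, a few textbook members, and hosts. The remaining members are named to account for all 24, and gene names outside the rule were chosen after values were seen.

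Pairs of libraries within a genotype differed by a chi-square of 8.40 to 19.4 per degree of freedom over genes, so none agreed within sampling noise. Alternatives were other scalings, filters and dispersions, a replicate block, DESeq2 1.42.0, limma 3.58.1 voom, and leaving out mitochondrial genes or each library.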

Additional observations from a re-analysis of the deposited data

How the results depend on the processing

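The 2 rises and the direction of both genes held under all 10 alternatives that kept the 6 libraries, with log2 fold changes of 1.75 to 1.98 for Snora23 and 1.79 to 1.98 for Snord22. Without 1 library the count of members called higher was 0 to 2. It was 0 when wild type replicate 1 was left out, and also for mutant replicates 2 and 3, and the 1 member called without mutant replicate 1 was Scarna2. Members called lower numbered 3 with no filter on low counts (Scarna6, Snora57 and Snora78) and 1 with thinned libraries (Scarna6). Pathway genes called lower numbered 2 with no filter (Rn7sk and Rmrp) and 1 with DESeq2's Wald test. The cause was not tested. Over all genes, 562 were called higher and 931 lower with no filter, against 175 and 255.

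The Snord median was −0.24 with thinned libraries, and −0.15 to 0.03 without 1 library. The Snora median was −0.17 to 0.13 and the Scarna median −0.27 to 0.15 without 1 library. Without length correction the class medians stood at 13.7 (Scarna over Snora) and 17.0 (Scarna over Snord), since Scarna genes are longer. Signs turned without 1 library for Ipo7 (−0.040 to 0.12, lowest without mutant replicate 3), Scarna13 (−0.21 to 0.040), Scarna17 (up to 0.15) and Snora7a (−0.66 to 0.014), these 3 without wild type replicate 3. Scarna9 was at −0.16 with limma voom, −0.30 without wild type replicate 1, −0.61 without mutant replicate 1, 0.37 without wild type replicate 2 and −0.13 with thinned libraries. Over all genes, deviations correlated weakly between libraries of the same replicate number (−0.126, 0.128 and −0.022 for numbers 1, 2 and 3). Unlike numbers gave −0.156 to 0.187. Among members, replicate 3 was the highest library of wild type for 79.2% and of the mutant for 62.5%, against 32.1% and 33.0% of all genes. These values cannot settle whether the replicate numbers pair the libraries. With the replicate block 2 members were called higher and 0 lower, Snora23 at 1.86 (edgeR adjusted p = 0.0012) and Snord22 at 1.95 (3.33e-05), and no member's call changed.

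The shallower mutant libraries limit low members: Snord43, Scarna9 and Snora62 had 6 to 18 reads in some of them.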
